A study of Mus musculus with 10 samples.

Results

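The genes described here are 32 members of cholesterol and myelin lipid synthesis, chosen by symbol from a list of enzymes and regulators. They fall into 13 sterol synthesis enzymes, 3 regulators (Insig1, Srebf1 and Srebf2), 11 fatty acid enzymes and 5 enzymes of galactolipid and other myelin lipid synthesis. All 32 were found among the 19333 genes of the oligodendrocyte precursor cell (OPC) table and among the 22064 genes listed for the immune libraries.

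The series holds 10 mouse RNA-seq libraries. Of 6 libraries from OPC cultures, purified by immunopanning and kept for 3 days in PDGFAA medium, 3 carry Olig2-Cre:Apc-fl/fl and 3 are from Apc-fl/fl littermates, called wild type here although both genotypes carry the floxed alleles. Cre runs from the Olig2 promoter, so deletion is aimed at Olig2-expressing cells and not at OPCs alone. The other 4 libraries were sorted from spinal cord of animals carrying Pdgfra-CreER:Apc-fl/fl, taken 18 days into experimental autoimmune encephalomyelitis (EAE). One set of 3 holds CD11b, Gr-1 and NK1.1 positive cells that the labels call cytotoxic macrophages, and 1 library holds CD4 positive cells labelled Th1. The 4 sorted libraries share 1 genotype, so they carry no comparison of Apc deletion. The labels used here name neither ages nor whether the CreER mice were induced.

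Myelin membrane is rich in cholesterol, in galactosylceramide and its sulfated form sulfatide, and in very long fatty acids, and oligodendrocytes make much of this lipid themselves. Cholesterol is built from acetyl-CoA through mevalonate, squalene and lanosterol. Transcription of that pathway is driven by SREBP2 (from Srebf2), and that of fatty acid synthesis largely by SREBP1 (from Srebf1), while INSIG1 holds both precursors in the endoplasmic reticulum when sterol is plentiful. APC helps to hold together the machinery that destroys beta-catenin, and without it Wnt signalling runs high.

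Several measurements bear on how far the labels hold. The OPC cultures are represented by 1 deposited comparison with no value per library, so neither the spread over cultures nor overlap between genotypes can be shown for any gene. Its fold changes name no numerator. Their sign was turned so that Notum, Sp5, Lef1 and Axin2, targets that Wnt signalling induces, are higher, and on that reading every OPC value below sets Apc-deleted cultures over wild type. In the authors' deposited table the means of 8 neuron markers ran from 8117 (Snap25) to 122255 (Tubb3) normalized counts. Those of 8 OPC markers ran from 702 (Lhfpl3) to 13051 (Ptprz1), with the receptor gene Pdgfra at 2251. Those of 6 astrocyte markers ran from 410 (Aldh1l1) to 7753 (Aldoc) in the authors' deposited table. The cultures' RNA thus held neuronal and astrocyte transcripts beside those of OPCs. In such bulk samples fewer cells of a type and less RNA per cell cannot be told apart. By the authors' deposited table, 0 of 8 neuron markers had an adjusted p below 0.05, whereas 2 of 8 microglia and macrophage markers had, Lyz2 at 4.33 (SE 0.96) and Cd68 at 1.54 (SE 0.36) on the log2 scale. Their part in the values of the lipid genes was not tested. Of the sorted libraries, the one labelled Th1 holds 3051729 estimated reads, against 23174908 to 23564215 in the macrophage libraries. T cell markers had no read for 8 of 9 measured genes in the library labelled Th1, among them Cd3e and Cd4. The exception was Lck, a T cell kinase gene, with 66.30 TPM, against 0.15, 0.15 and 0.19 TPM in the macrophage libraries, so the marker sum was 66.3 TPM, against 3.24 to 4.01 TPM. Its name is kept as a label only. Neutrophil markers summed to between 433647 and 436734 TPM in the macrophage libraries, against 22921 to 23160 TPM for microglia and macrophage markers, so that name is a label too. Nearly all of the latter sum was Lyz2, at 22679 ± 122 TPM (SD, n = 3).

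The first comparison asked whether Apc deletion in OPC cultures altered lipid synthesis transcripts. No member had an adjusted p below 0.05 by the authors' deposited table, where 0.548% of all 19333 genes had one, 0.393% being higher and 0.155% lower in Apc-deleted cultures. An unadjusted p under 0.05 was held by 2 members, Fa2h and Elovl7, against 3.63% of all genes in the authors' deposited table. Point estimates were higher in Apc-deleted cultures for 23 members and lower for 9, with a median log2 fold change of 0.04, against 9726 higher and 9607 lower with a median of 0.00 over all genes of the authors' deposited table. The estimates were mostly narrow. For 30 of 32 members the 95% interval, made from the deposited SE, lay inside a 2-fold change in both directions, as it did for 66.5% of all genes in the authors' deposited table. The exceptions were Idi1 and Fa2h. Within 1.5-fold either way lay 25 members, against 46.8% of all genes of the authors' deposited table, and beside Idi1 and Fa2h the ones outside were Nsdhl, Srebf1, Gal3st1, Cers2 and Aspa. A missed threshold does not show equal expression, and these intervals state the sizes of change that the authors' deposited table leaves possible.

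**Figure D1:**
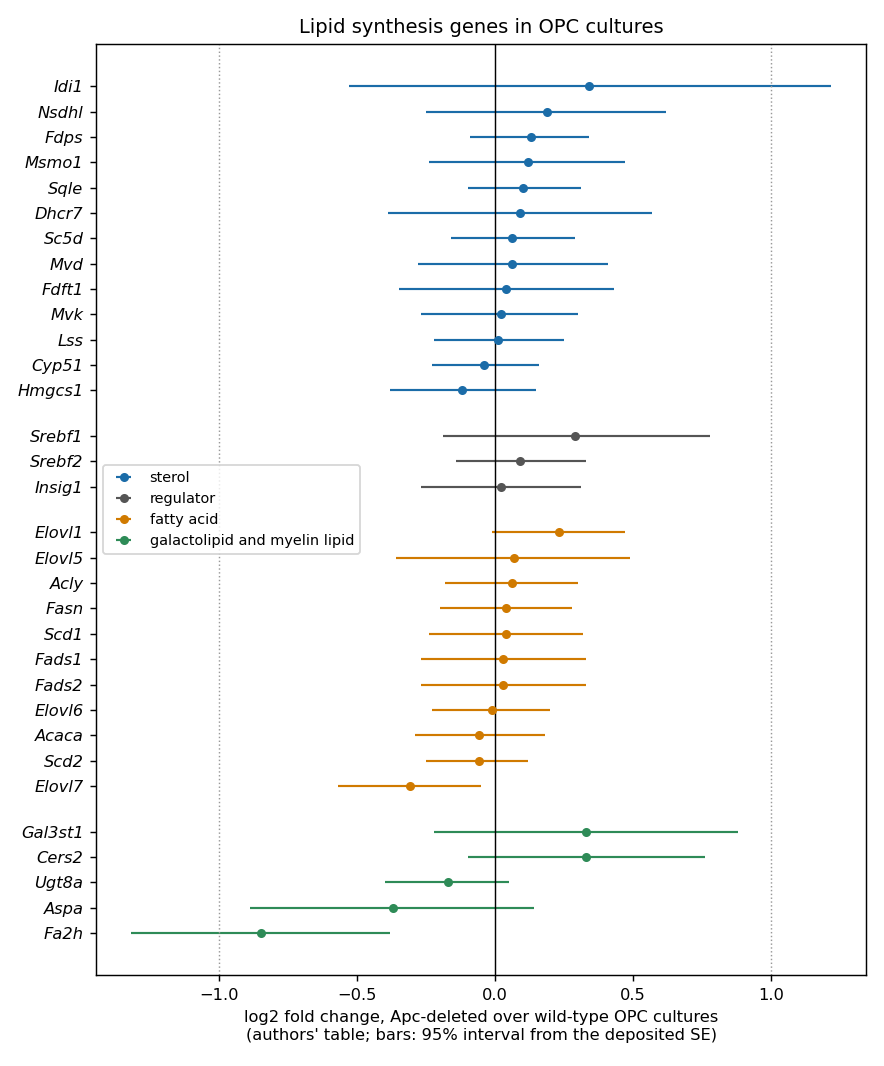
Log2 fold change (x axis) of each of the 32 members (y axis) in OPC cultures, Apc-deleted over wild type, from the authors' deposited table; bars are 95% intervals from the deposited SE and dotted lines mark a 2-fold change. Fa2h at -0.85 lies farthest from 0, and all sterol, regulator and fatty acid intervals except that of Elovl7 include 0.

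Sterol enzymes stayed close to 0. By the authors' deposited table, 11 of 13 enzymes had a higher and 2 a lower point estimate in Apc-deleted cultures, with a median log2 fold change of 0.06 and 0 members at an unadjusted p under 0.05. Early in the pathway Hmgcs1 (chromosome 13, 119690379 to 119708260, GRCm38), the synthase that makes HMG-CoA, had -0.12 (SE 0.13) and a 95% interval of 0.768-fold to 1.11-fold by the authors' deposited table. Mevalonate kinase (Mvk) and a decarboxylase later in the pathway (Mvd) were at 0.02 (SE 0.15) and 0.06 (SE 0.17) in the authors' deposited table. The isoprenoid enzymes Idi1, an isomerase, and Fdps, farnesyl diphosphate synthase, were at 0.34 (SE 0.44) and 0.13 (SE 0.11), from the authors' deposited table. Idi1 had the widest SE of the members, at a mean of 37.3 normalized counts, so its interval from 0.694-fold to 2.32-fold in the authors' deposited table says little.

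The steps from squalene onward also lay close to 0. Fdft1 makes squalene and Sqle, which oxidises it, is a control point of the pathway; in the authors' deposited table they were at 0.04 (SE 0.20) and 0.10 (SE 0.11). Lss, which closes the sterol rings, was at 0.01 (SE 0.12), and Cyp51, which removes a methyl group from lanosterol, at -0.04 (SE 0.10) in the authors' deposited table. Msmo1 and Nsdhl, which act together in removing further methyl groups, were at 0.12 (SE 0.18) and 0.19 (SE 0.22) in the authors' deposited table. Sc5d and Dhcr7, enzymes of the last steps, were at 0.06 (SE 0.11) and 0.09 (SE 0.25) in the authors' deposited table. None of these intervals excluded 0. The 10 other sterol synthesis genes measured gave the same count of 0 past the threshold by the authors' deposited table. Lbr, a sterol reductase of the nuclear envelope, and Ggps1, which makes geranylgeranyl diphosphate, had the smallest p of that list, at 0.29 (SE 0.21) and -0.12 (SE 0.12) in the authors' deposited table.

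The sterol genes share promoter features that did not enter the choice of members. RefSeq promoter windows on GRCm38.p6, each 250 bases before to 50 after an annotated start, were found for 25 of the 32 members, 10 of them sterol enzymes. These 25 genes have 33 windows, since 5 of them have more than 1, and a gene counts as holding a motif where any of its windows does, here and in the shares of all genes. A CCAAT box (CCAAT on either strand), the element bound by NF-Y, a factor known to act beside SREBP, occurred in 10 of those 10 sterol genes and in 3 of 3 regulators. It occurred in 4 of 8 fatty acid and 3 of 4 galactolipid genes, and in 42.1% of the 12485 genes of the OPC table with a window. For Dhcr7 only 1 of its 3 windows holds it. A GC box (GGGCGG, either strand) was also in 10 of 10 sterol genes and 3 of 3 regulators, against 64.5% of genes of the OPC table. It was in 4 of 8 fatty acid and 2 of 4 galactolipid genes. The classical sterol regulatory element, searched as TCACNCCAC on both strands, matched in 1 gene, Hmgcs1, against 1.39% of genes of the OPC table. TCF/LEF letters (CTTTGNT, either strand) matched in 3 of 25 genes, against 17.5%. Matches of different motifs overlapped at 1 place in the member windows. Base composition differed, each gene being taken at its window of highest GC. The median was 64.3% GC for sterol genes and 68.0% for all 25 members, against 61.3% for genes of the OPC table. The windows of Hmgcs1 (chr13:119690101-119690400, plus strand), the 1 gene with every one of these elements, and of Ugt8a (chr3:125938603-125938902, minus strand), the galactolipid gene with neither element, are shown 5′ to 3′ with the regulatory element (TCACCCCAC) and CCAAT matches, which read ATTGG on the other strand, in capitals.
Hmgcs1: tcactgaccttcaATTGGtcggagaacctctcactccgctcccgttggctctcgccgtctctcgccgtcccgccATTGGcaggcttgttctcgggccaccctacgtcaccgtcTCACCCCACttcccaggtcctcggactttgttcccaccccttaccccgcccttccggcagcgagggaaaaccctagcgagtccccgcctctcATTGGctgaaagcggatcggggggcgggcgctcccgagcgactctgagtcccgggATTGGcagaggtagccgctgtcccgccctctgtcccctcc
Ugt8a: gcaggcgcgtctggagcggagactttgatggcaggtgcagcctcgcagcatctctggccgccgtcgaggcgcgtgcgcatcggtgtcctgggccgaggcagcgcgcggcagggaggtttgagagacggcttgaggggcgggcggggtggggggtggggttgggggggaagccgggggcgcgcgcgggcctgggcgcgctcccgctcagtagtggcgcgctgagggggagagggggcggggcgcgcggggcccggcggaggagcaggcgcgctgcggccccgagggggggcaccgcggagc
The Hmgcs1 window holds 4 CCAAT matches and 1 regulatory element, and that of Ugt8a holds none of either, while both hold TCF/LEF letters. A palindromic E box (CACGTG), also searched, was in 5 of 25 members, against 11.1% of genes of the OPC table, and not in Hmgcs1. A match is a run of letters in such a window and was not tested for binding.

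**Figure D2:**
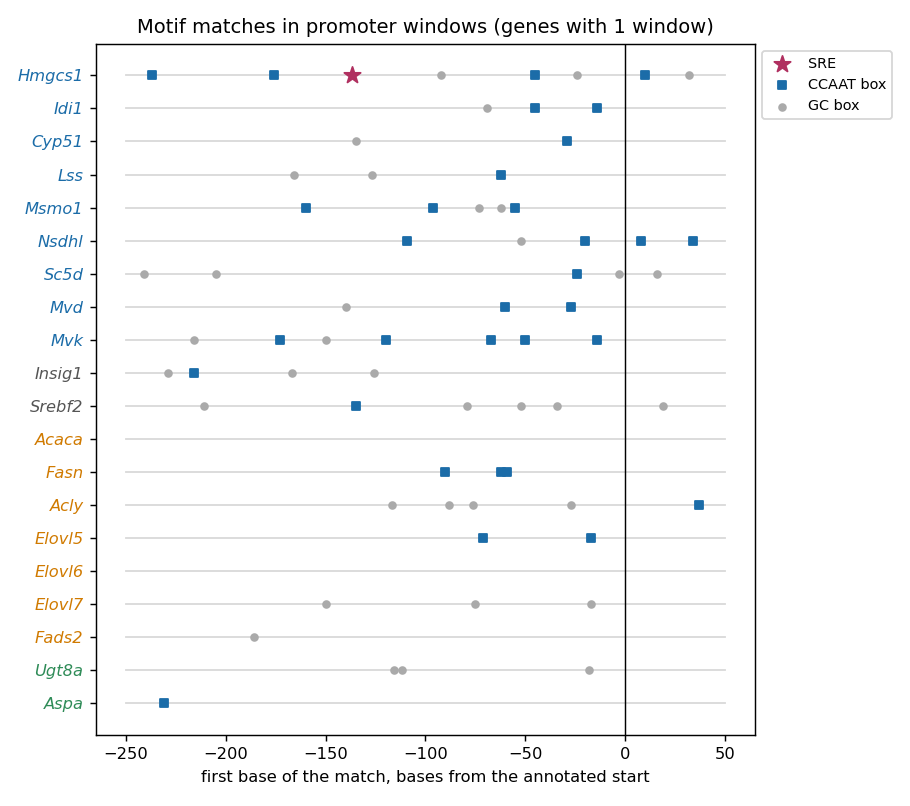
First base of each motif match (x axis, bases from the annotated start) in the promoter windows of the 20 members with a single window (y axis, coloured by branch, sterol at the top). Blue squares (CCAAT) appear in every sterol gene shown, and the single star (sterol regulatory element) belongs to Hmgcs1.

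The regulators did not pass either. Srebf2 (chromosome 15, 82147181 to 82205379) was at 0.09 (SE 0.12) and Insig1 at 0.02 (SE 0.15) by the authors' deposited table. Srebf1 was at 0.29 (SE 0.25), and its interval reached 1.71-fold, from the authors' deposited table. Around them, 7 of 8 other genes of SREBP control and sterol uptake had a higher point estimate, with a median of 0.16 and 0 passing, by the authors' deposited table. The smallest p in that list was that of Mylip, a ubiquitin ligase that limits sterol uptake, at 0.51 (SE 0.25, unadjusted p = 0.0410) in the authors' deposited table. Of 10 measured genes for sterol efflux, storage and oxysterols 0 passed, with Lipa, the lysosomal lipase, at 0.42 (SE 0.27) and Npc2, a lysosomal sterol carrier, at 0.19 (SE 0.17) in the authors' deposited table.

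Fatty acid enzymes were tightly grouped. By the authors' deposited table, 9 of 11 enzymes lay within 0.1 of 0 on the log2 scale, against 7596 of all 19333 genes. The median was 0.03, and all 11 intervals lay inside 1.5-fold, against 46.8% of all genes in the authors' deposited table. Their median SE was 0.12, against 0.23 over all genes of the authors' deposited table, and its part in the tight grouping was not tested. Acly, which makes cytosolic acetyl-CoA, Acaca, which carboxylates it, and Fasn, which assembles palmitate, were at 0.06 (SE 0.12), -0.06 (SE 0.12) and 0.04 (SE 0.12) in the authors' deposited table. The stearoyl-CoA desaturases Scd1 and Scd2 were at 0.04 (SE 0.14) and -0.06 (SE 0.09), and that SE of Scd2 was the smallest among the 32 members of the authors' deposited table. Fads1 and Fads2, desaturases of polyunsaturated fatty acids, were at 0.03 (SE 0.15) and 0.03 (SE 0.15) in the authors' deposited table. Both pairs lie together on chromosome 19, with 87591 bases between Scd2 and Scd1 and 81142 between Fads2 and Fads1, and as paralogs they may share reads.

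The elongases parted in their estimates. Elovl7 (chromosome 13, 108214404 to 108285683), which extends very long chains, was at -0.31 (SE 0.13) with an unadjusted p of 0.0197, but with an adjusted p of 0.982, by the authors' deposited table. Elovl1, which makes saturated very long chains, pointed the other way at 0.23 (SE 0.12, unadjusted p = 0.0640) in the authors' deposited table. Elovl1 overlaps the cell cycle gene Cdc20 on the opposite strand, and no label says whether counting used strand; Cdc20 had 0.76 (SE 0.70) by the authors' deposited table. Elovl5, for polyunsaturated chains, and Elovl6, which turns palmitate into stearate, were at 0.07 (SE 0.22) and -0.01 (SE 0.11) in the authors' deposited table. Among 18 other fatty acid genes measured 0 passed, and the smallest p was that of Acsl3, an acyl-CoA synthetase, at -0.31 (SE 0.10, unadjusted p = 0.00143, adjusted p = 0.175) in the authors' deposited table, followed by the desaturase Scd3 at -0.32 (SE 0.28).

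Galactolipid and myelin lipid genes spread widest. Their 5 estimates ran between -0.85 and 0.33 with a median of -0.17 in the authors' deposited table. There 0 of 5 lay within 0.1 of 0, against 7596 of all 19333 genes. Their median SE was 0.24, against 0.15 for sterol enzymes, 0.15 for regulators and 0.12 for fatty acid enzymes in the authors' deposited table. The part of this lower precision in the wider spread was not tested. Fa2h (chromosome 8, 111345135 to 111393824), which hydroxylates the fatty acid of myelin galactolipids, had -0.85 (SE 0.24) by the authors' deposited table, with an interval from 0.400-fold to 0.768-fold. Its unadjusted p of 3.85e-04 ranked 113 among 19333 genes and its adjusted p was 0.0669, so it missed the threshold that the calls from the authors' deposited table were held to. With 0.1 as the adjusted threshold, which 0.647% of all genes met, Fa2h was the 1 member to pass. Its SE was 1.12 times the median SE of the 200 genes nearest in mean level, and its mean was 133 normalized counts in the authors' deposited table.

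The remaining members of that branch had smaller estimates than Fa2h, in both directions, and a difference from Fa2h was not tested. Ugt8a, the ceramide galactosyltransferase that makes galactosylceramide, was at -0.17 (SE 0.11), and Aspa, which releases acetate from N-acetylaspartate, at -0.37 (SE 0.26) in the authors' deposited table. Gal3st1, the sulfotransferase that turns galactosylceramide into sulfatide, and Cers2, which makes ceramides with very long chains, had higher estimates of 0.33 (SE 0.28) and 0.33 (SE 0.22), from the authors' deposited table. Each of these 4 intervals included 0. Of 20 other sphingolipid genes measured 0 passed in the authors' deposited table, the smallest p being those of Gltp, a glycolipid transfer protein, at -0.36 (SE 0.19) and Kdsr, an early enzyme of ceramide synthesis, at -0.23 (SE 0.14).

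Beside the lipid genes stand markers of oligodendrocyte differentiation, of which 4 of 14 fell, against the 0.155% of all genes that fell by the authors' deposited table. These were Gpr17, a receptor of committed precursors, at -1.16 (SE 0.15, adjusted p = 2.14e-10), Enpp6, a choline-releasing enzyme typical of new oligodendrocytes, at -1.15 (SE 0.25, adjusted p = 0.00145), Myrf, a regulator of myelin genes, at -1.08 (SE 0.24, adjusted p = 0.00208), and Bcas1 at -0.65 (SE 0.15, adjusted p = 0.00716), all from the authors' deposited table. The structural myelin gene Mbp had -0.12 (SE 0.12) by the authors' deposited table and was not among them. These lists were chosen with earlier results of this series known, and a difference between a marker and a lipid gene cannot be tested without values per library.

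**Figure D3:**
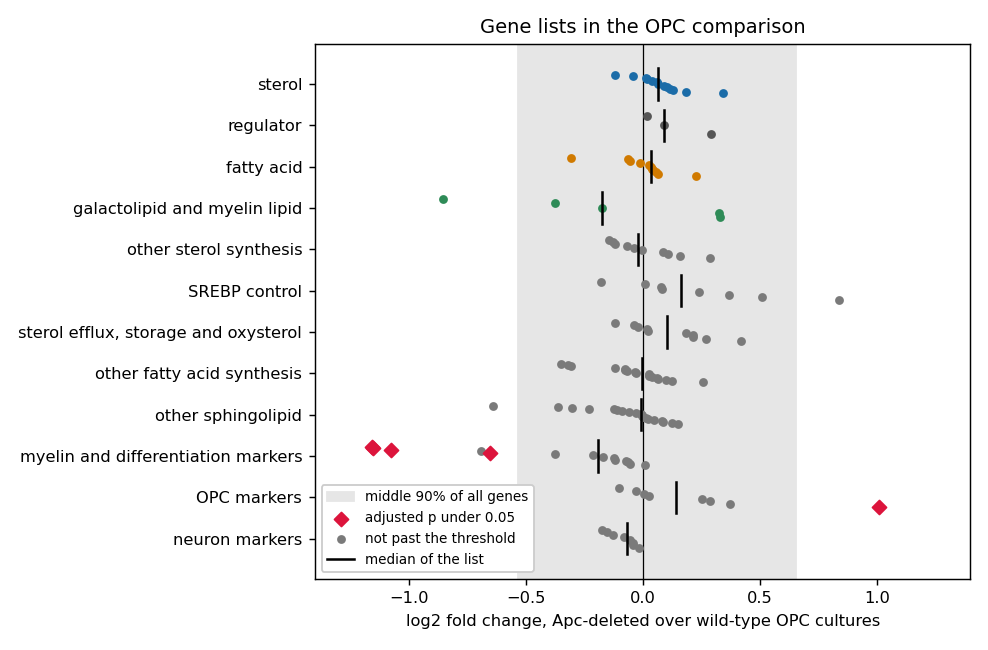
Log2 fold change (x axis) in OPC cultures, Apc-deleted over wild type, for each gene of the 4 branches and of 8 further lists (y axis), from the authors' deposited table; grey shading spans the 5th to 95th percentile of all genes, -0.53 to 0.66. Of the 32 members only Fa2h lies outside the shading, and the red diamonds (adjusted p under 0.05) are 4 differentiation markers, of which Gpr17 and Enpp6 coincide, and Matn4.

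Levels in the OPC cultures ranged widely once mean normalized counts were divided by the annotated exon length. Per kilobase, Mvd was highest with 9676 mean normalized counts in the authors' deposited table, followed by Scd2 with 4912, Hmgcs1 with 4623 and Cyp51 with 1781. Scd1, the paralog of Scd2, stood at 422 and the galactosyltransferase gene Ugt8a at 370 per kilobase, from the authors' deposited table. The lowest were Fa2h with 44.2, Acaca with 34.7, Srebf1 with 19.8, Aspa with 11.4 and Idi1 with 10.6 mean normalized counts per kilobase, from the authors' deposited table. These are means over both genotypes with no spread, so the order of neighbours is not tested. Reads may be shared for the 8 members that overlap another protein-coding gene, among them Mvd, which overlaps the predicted gene Gm20388.

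The same genes were next described in the cells sorted from EAE cord. In the macrophage libraries 4 of 32 members reached 10 TPM and 15 reached 1 TPM. This unit corrects for transcript length and divides a fixed total among all genes. Neutrophil markers held between 433647 and 436734 TPM of that total, which leaves less for other genes. The share of all genes at these levels was not counted. Elovl1 led with 29.60, 30.60 and 30.77 TPM, and Fdps followed with 27.37, 25.22 and 26.95 TPM. These do not overlap between the genes, though they come close. Cers2 had 14.12, 14.02 and 14.17 TPM and Elovl5 had 13.90, 14.48 and 13.75 TPM, so this pair of neighbours in the order overlap. Next came Srebf1 at 6.86 ± 0.65 TPM, Msmo1 at 5.36 ± 0.23 TPM and Mvd at 4.94 ± 0.19 TPM (SD, n = 3). The columns of these libraries match no replicate label, so they are named a, b and c, and nothing says that they came from separate animals, so an SD here measures only the spread between libraries, which may be technical.

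The sterol branch in these libraries summed to 49.1 ± 1.5 TPM (SD, n = 3), and more than any other member Fdps made up that sum. Below it, Sc5d, Fdft1, Nsdhl, Mvk and Hmgcs1 lay between 2.81 and 1.07 TPM, and Idi1, Cyp51, Sqle and Dhcr7 between 0.710 and 0.440 TPM. Lss was nearly absent at 0.05, 0.06 and 0.02 TPM, from 14, 18 and 5 reads. The fatty acid branch summed to 47.8, 49.6 and 48.8 TPM, nearly all of it from elongases. By contrast Acly was at 1.67 ± 0.11, Acaca at 0.180 ± 0.010 and Fasn at 0.117 ± 0.023 TPM (SD, n = 3). Scd2 stood at 0.727 ± 0.038 TPM and Scd1 at 0.0400 ± 0.010 TPM (SD, n = 3), groups that do not overlap.

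Members of the galactolipid and myelin lipid branch other than Cers2 were not detected or nearly so. Fa2h and Ugt8a had no read in any macrophage library, where a count of 0 allows up to 0.129 CPM, a share of all reads, in the shallowest by counting error alone. Gal3st1 had 3, 5 and 1 reads and Aspa 0, 0 and 2 reads. Cers2, which also serves ceramide synthesis outside myelin, was the 1 gene of this branch above 1 TPM. The myelin and differentiation markers summed to between 6.63 and 7.13 TPM in the same libraries, with Mbp and Cnp making up most of it, and 3 of those 14 markers had no read. Of 8 OPC markers 7 had no read.

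**Figure D4:**
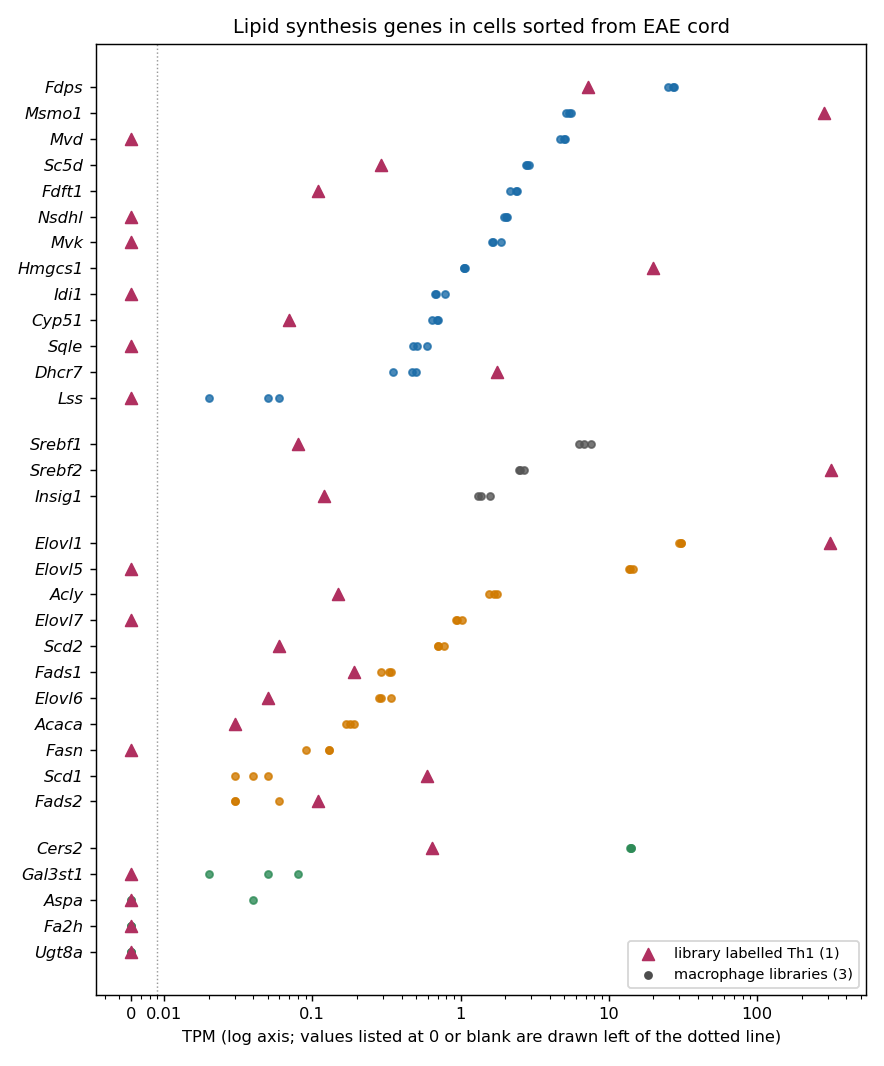
TPM on a log axis (x) for each member (y, by branch) in the library labelled Th1 (triangle) and the macrophage libraries (3 dots). The macrophage dots lie close together, whereas the triangle is far to the right for Msmo1, Hmgcs1, Srebf2 and Elovl1 and at 0 for 13 members.

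The library labelled Th1 was set against the macrophage libraries by edgeR's quasi-likelihood test, which took its spread from the macrophage libraries alone and assumed the single library to vary like them. Its reads were distributed unlike theirs. Neutrophil markers summed to 24481 TPM in it, against 433647 to 436734 TPM in the macrophage libraries. Microglia and macrophage markers summed to 11032 TPM, against 22921 to 23160 TPM. Nearly all of that was Lyz2, with 11006.03 TPM in the library labelled Th1, against 22679 ± 122 TPM (SD, n = 3). The other genes of that list were uneven, from Cd68 with 1.68 TPM, against 207 ± 6.1 TPM, to P2ry12 with 4.05 TPM, against 3.76 ± 0.076 TPM. The part of these markers in the lipid gene values was not tested. Of its 6550 genes with reads 56.8% had 3 or fewer, against 10.8% to 11.4% in the macrophage libraries, and 1550 genes with over 100 reads held 99.0% of its reads. With so different a profile 68.2% of 11447 tested genes were called, which took an adjusted p below 0.05 with a change of 4-fold or more, and the p-values compare these libraries and not the cell types. Since the macrophage libraries may be technical replicates (biological coefficient of variation 0.0224), the p-values may be too small, so folds are given below without them.

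The lipid genes showed the same pattern of few high and many near-empty values. Over 100 reads were held by 4 of 32 members, against 7.03% of all 22064 listed genes. While 11 members had 1 to 3 reads, 3723 of the listed genes had 3 or fewer but at least some. No read was found for 13 members, and 6550 of the listed genes had any read. Srebf2 had 318.00 TPM in the library labelled Th1, against 2.50, 2.51 and 2.68 TPM in the macrophage libraries. That is 169-fold higher in normalized counts and between 60.0-fold and 484-fold over 3 ways of scaling the libraries. Msmo1 had 282.97 TPM, against 5.59, 5.13 and 5.37 TPM in the macrophage libraries, an 82.7-fold difference in normalized counts that ran between 29.3-fold and 237-fold over the scalings. The single library stood far above the macrophage range for both genes.

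Elovl1 and Hmgcs1 were also high there. Elovl1 had 311.56 TPM in the library labelled Th1, against 29.60, 30.60 and 30.77 TPM in the macrophage libraries, 16.0-fold in normalized counts and 5.68-fold to 45.9-fold over the scalings. Its overlapping neighbour Cdc20 had 7 reads there, against 431 to 519 in the macrophage libraries. Hmgcs1 had 19.85 TPM, against 1.06, 1.06 and 1.08 TPM in the macrophage libraries, 27.9-fold in normalized counts and 9.89-fold to 79.8-fold over the scalings. Scd1 and Dhcr7 passed on few reads, 9 and 12 in the library labelled Th1, at 23.5-fold and 5.52-fold in normalized counts. The scalings put Scd1 between 8.33-fold and 67.2-fold. Dhcr7 kept at least 4-fold under TMM and DESeq2 scaling, and was 1.96-fold higher by library size alone.

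In all, 6 of 27 members that passed the filter on low counts were higher in the library labelled Th1, where 13.7% of all tested genes were, and 15 were lower, where 54.6% were. With DESeq2 size factors 6 were higher and 6 lower, against 17.6% and 30.1% of genes, and the share of calls that were higher moved to 36.9% of all calls, against 20.1% with TMM. The calls covered 47.6% of genes with those size factors. By library sizes alone 80.9% of genes were called (9.59% higher, 71.3% lower), with 5 members higher and 19 lower. By the DESeq2 Wald test 38.6% were called (16.9% higher, 21.7% lower), with 6 members higher and 4 lower. At such a background the counts are no result about lipid genes, and of the 15 members called lower with TMM 7 had no read and 7 had 1 to 3 reads, where a fitted change depends on the prior count. Among the lower ones, Elovl5 had no read in the library labelled Th1, against 663, 711 and 691 reads in the macrophage libraries, at least 3.71-fold lower with a floor of 3 reads under the scaling least favourable to a difference. Srebf1 had 1 read, against 1194, 1481 and 1311, a TMM-scaled ratio of 0.0163 with an exact 95% counting interval of 4.12e-04 to 0.0907, and of 0.00577 to 0.0466 over the scalings. Cers2 had 4 reads, against 1228, 1246 and 1250, a ratio of 0.0697 in normalized counts that ran between 0.0247 and 0.199 over the scalings. Mvd and Nsdhl had no read, and their bounds were 1.91-fold and 1.01-fold lower. Fdps had 26 reads, against 1311, 1230 and 1312, a log2 fold change of -1.19 that turned to 0.32 with DESeq2 size factors, and Fads1 turned likewise, so neither gene has a direction. Fa2h and Ugt8a had no read in any of the 4 libraries.

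In each branch 1 gene made up at least 90.6% of the total in the library labelled Th1. The sterol sum was 312 TPM, against 49.1 ± 1.5 TPM in the macrophage libraries (SD, n = 3), Msmo1 being its main part. Without Msmo1 the sum was 29.4 TPM, against 43.8 ± 1.3 TPM in the macrophage libraries, but this direction depends on the scaling. The same sum in CPM was 1.81 times the macrophage mean with TMM factors, 5.19 times with DESeq2 size factors and 0.643 times by library sizes alone, so the sterol sum without Msmo1 has no firm direction. The fatty acid sum was 313 TPM, against 48.7 ± 0.88 TPM in the macrophage libraries, and 1.18 TPM without Elovl1, against 18.4 ± 0.48 TPM. For the regulators it was 318 TPM, against 10.9 ± 0.56 TPM, and 0.200 TPM without Srebf2, against 8.29 ± 0.57 TPM. For both branches the remainder was lower under all 3 scalings too. The gene left out was the highest of its branch in the library labelled Th1, a choice that lowers the remainder, so no direction is drawn. In that library the regulator remainder rests on 1 read each of Insig1 and Srebf1, and Scd1 gave 9 reads of the fatty acid remainder. The galactolipid and myelin lipid sum was 0.640 TPM in the library labelled Th1, all of it from Cers2, against 14.2 ± 0.065 TPM in the macrophage libraries.

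**Figure D5:**
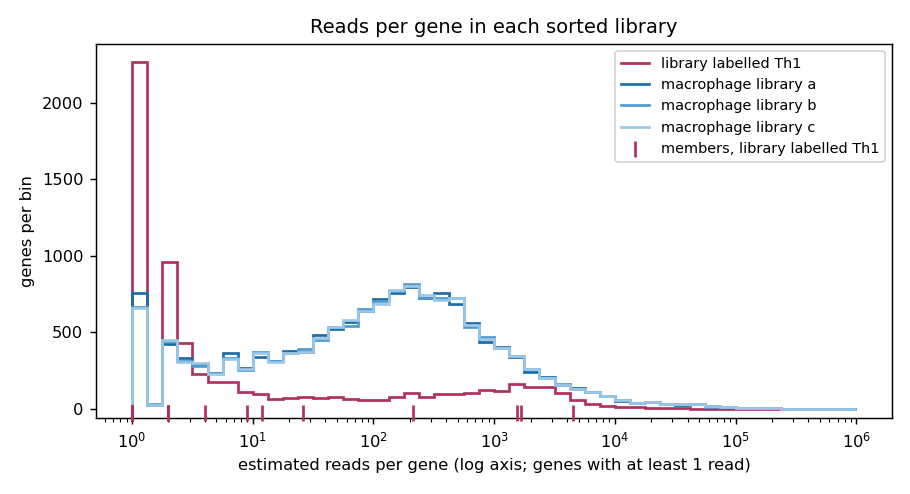
Number of genes (y axis) by estimated reads per gene (x axis, log scale) in the library labelled Th1 and in each macrophage library, for genes with at least 1 read; ticks under the axis mark the lipid genes in the library labelled Th1. That library has a peak at 1 to 3 reads and a low, broad second hump above 100 reads, and the ticks fall in both.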

How the data were processed

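RNA taken up in Trizol was sequenced with paired ends on a HiSeq, per the labels' protocols. The submitters' processing notes name GRCm38 but no aligner or counter. For OPC cultures the authors deposited 1 comparison without values per library, with DESeq2 column names: a mean of normalized counts (a signal per gene), log2 fold changes with SE, a statistic (a score that equals fold change over SE), p-values and adjusted p-values. Per the file headers, each sorted library has TPM and read counts, here called estimated counts since the authors deposited between 79.8% and 80.3% whole values per macrophage library and 85.6% for the library labelled Th1. 8 columns of these files (FPKM and normalized read counts) were not used.

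OPC fold changes were turned to Apc-deleted over wild type by 4 Wnt targets; 95% intervals use 1.96 SEs. In the sorted libraries a blank was read as 0, and estimated counts went into the tests as the nearest whole number. edgeR 4.0.16 (quasi-likelihood, TMM, filterByExpr, Benjamini-Hochberg over all genes) compared the library labelled Th1 with the macrophage libraries, with calls past both 0.05 (adjusted p) and 4-fold. The test was run on simulated data for the same libraries (11447 genes): it recovered 50 of 50 genes set 8-fold higher, 49 of 50 set 8-fold lower, and called 2 of 11247 unchanged genes. The simulated single library had the macrophage profile, unlike the real one. The changed genes were drawn only from those above a minimum of expected reads in that library, so recovery at low counts was not measured. The macrophage libraries differed by more than sampling noise (chi-square per degree of freedom from 1.29 to 2.53 over pairs) and were kept as 3. Their common biological coefficient of variation was 0.0224. Floors (3 reads) and exact intervals cover counting error only. Alternatives were DESeq2 1.42.0 size factors and Wald test, library sizes alone, no filter, each macrophage library left out, other thresholds and, chosen after the data were seen, branch sums without their leading gene, in TPM and under 3 scalings. Promoters come from RefSeq GRCm38.p6 and exon lengths from GENCODE M21. Software was matplotlib 3.10.9, scipy 1.17.1, pandas 2.3.3 and numpy 2.4.6 under Python 3.11.15, with R 4.3.3.

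All 32 members are named; other pathway genes are named where past the threshold or among the 2 smallest p of a list, except for a few results not reported here. The members, lists and motifs were chosen with earlier results of these data known. No list was tested as a set.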

Additional observations from a re-analysis of the deposited data

How the results depend on the processing

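For the OPC cultures the count of members past an adjusted p of 0.05 stayed at 0 with Benjamini-Hochberg over every gene and with genes of at least 10 mean normalized counts, and was 1 (Fa2h) at 0.1; the adjusted p of Fa2h was 0.0659 and 0.0542 under the first pair of settings. Branch medians kept their sign. Between the library labelled Th1 and the macrophage libraries, the count of members lower was 15, but 6 with DESeq2 size factors and 4 with the DESeq2 Wald test, where 5 members had no adjusted p; it ran from 15 to 16 when a macrophage library was left out. The count higher ran from 5 to 6 over all settings at 4-fold. Fdps changed sign to 0.32 with DESeq2 size factors and with the Wald test, and Fads1 to 1.35 with DESeq2 size factors. Branch sum ratios of the library labelled Th1 over macrophage libraries, as deposited 6.36 (sterol), 29.3 (regulators), 6.42 (fatty acid) and 0.0452 (galactolipid), were in that order 3.68, 17.0, 3.72 and 0.0262 with TPM rescaled without neutrophil markers, 11.4, 47.4, 9.22 and 0.0695 with TMM-scaled CPM, and 0.671, 0.0241, 0.0641 and 0 without the leading gene. Without the leading gene in CPM they were 1.81, 0.0290, 0.215 and 0 with TMM factors, 5.19, 0.0831, 0.615 and 0 with DESeq2 size factors, and 0.643, 0.0103, 0.0762 and 0 by library sizes. The cause was not tested, save that the settings without the leading gene remove 1 gene. No paired analysis was possible because the OPC table has no values per library and the library labelled Th1 is single. In the library labelled Th1 no read allows 0.983 CPM by counting error alone, a floor that does not cover how its reads were spread over genes. The part of its lower depth in the genes without reads was not tested.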

Other observations

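A few other genes of lipid handling were abundant in the library labelled Th1, and most were not. Of 10 other sterol synthesis genes 1, Pmvk, had over 3 reads there, 4 had 1 to 3 and 5 had none, and of 20 other fatty acid genes 2 had over 3 reads, 9 had 1 to 3 and 9 had none. The genes named next were chosen after their values were seen. Pmvk, the mevalonate pathway kinase between Mvk and Mvd, had 959.01 TPM there, against 11.5 ± 0.17 TPM in the macrophage libraries (SD, n = 3). Lipa had 879.45 TPM, against 7.40 ± 0.32 TPM, and Soat1, which esterifies cholesterol, had 45.43 TPM, against 2.82 ± 0.080 TPM. Apoe, a lipid carrier of macrophages and glia, had 2049.19 TPM, against 307 ± 3.3 TPM. Of 12 genes of sterol efflux, storage and oxysterols 4 had over 100 reads in that library, as had 7.03% of all listed genes, and 4 had none. In the macrophage libraries the highest levels among the other pathway genes after Apoe were in Hacd4 and Tecr, enzymes of the fatty acid elongation cycle, with 185 ± 3.5 and 176 ± 3.6 TPM, (SD, n = 3). Degs1, a ceramide desaturase, led the sphingolipid genes with 38.3 ± 0.54 TPM (SD, n = 3), and had no read in the library labelled Th1.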
